A study of Mus musculus with 12 samples.

Results

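C2C12 cells, a mouse myoblast line that stops dividing and fuses into multinucleated fibres when serum is lowered, were compared with and without knockdown of Kctd10, before differentiation and during it. The experiment takes all 12 of the 12 libraries, chosen by their labels, in 4 groups of 3. At D0, cells below confluence were kept in medium with 10% fetal bovine serum and harvested 48 h after treatment with siKctd10, which targets Kctd10, or with siControl, which targets no gene. At D2, cells given the same siRNAs were moved after 24 h to medium with 2% horse serum and harvested 48 h after differentiation began. Day, medium, cell density and time since siRNA therefore change together and cannot be told apart. The labels name no genetic change in the line and 1 siRNA against Kctd10. Nothing in the labels says that libraries of a group came from separate cultures, so the tests measure the spread between these libraries, which may be technical.

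KCTD10 belongs to a family of adaptors that bring substrates to CUL3 ubiquitin ligases, and the title of the series concerns ubiquitin and the actin cytoskeleton in cell fusion. Differentiating myoblasts leave the cell cycle under MyoD and myogenin, switch on the sarcomere, the repeating actin and myosin unit of the muscle fibre, and fuse. Actin also acts back on transcription, since the amount of free actin monomer and the tension on filaments are known to set the activity of the MRTF and SRF pair and of YAP and TEAD. The comparison addresses which genes respond to siKctd10 on 1 day and not, or in the opposite direction, on the other.

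The siRNA matched the Kctd10 coding sequence at 1 place, across the junction of exon 5 (4 bases, chromosome 5 from 114368342 to 114368345, minus strand, GRCm38, which is mm10) and exon 6 (15 bases, 114367390 to 114367404). It is shown because knockdown on both days is the base of every result, and its capitals mark the bases that pair with the guide strand's seed, positions 2 to 8 counted from the guide's 5′ end.
Kctd10 target site: ccagcaattctGACGATAa
Kctd10 itself was measured at D0 at 272, 258 and 269 TPM in siControl and 24.8, 24.5 and 19.97 in siKctd10. At D2 it was measured at 285, 276 and 289 TPM in siControl and 34.3, 26.8 and 35.1 in siKctd10. Every siKctd10 library lay far below every siControl library of its day. The effects, -3.48 at D0 and -3.12 at D2 on the log2(TPM + 1) scale used throughout, differed by 0.36 (SE 0.16, limma adjusted p = 0.495), so a difference in knockdown between days was not called. Capza1, which encodes the alpha subunit of actin capping protein, fell by 1.96 at D0 and by 1.40 at D2, with a difference of 0.56 (SE 0.22, limma adjusted p = 0.404).

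Estimated depth ranged from 12.51 to 18.08 times 1000000 read pairs per library, and 12024 to 12604 genes reached 1 TPM (transcripts per 1000000, a level corrected for transcript length). Days separated along principal component 1 (41.1% of the variance) and siRNAs along component 2 (10.4%), where the siKctd10 libraries numbered 3 stood farthest out on both days. The summed TPM of 7 markers of differentiating myocytes was 93.3 to 125 in siControl and 157 to 212 in siKctd10 at D0, and 2120 to 2480 against 1400 to 1830 at D2. At D0 Acta1 alone made up most of this sum, with 72.9 to 102 TPM in siControl and 135 to 196 in siKctd10. The median effect of siKctd10 over the 7 genes was -0.03 at D0 and -0.63 at D2, so the D0 rise of the sum is not one of the markers in general. Myoblast markers (5 genes) summed to 697 to 712 and 807 to 923 TPM at D0, and to 1850 to 1990 and 1610 to 1860 at D2. Markers of adipocytes (5), endothelial cells (4) and neural cells (4) summed to at most 0.878 TPM in any library, with 4, 2 and 2 of them listed at 0 throughout. Those of osteoblasts (4) summed to at most 4.47 TPM and those of leukocytes (5) to at most 2.90. Those of smooth muscle summed to 13.7 to 34.4 TPM in siControl and 34.1 to 36.6 in siKctd10 at D0, and to 44.7 to 93.2 against 36.1 to 59.7 at D2. The part of these marker levels in the results below was not tested. Because RNA of whole cultures was measured, fewer cells of a kind and less RNA per cell cannot be told apart.

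For each gene the difference (siKctd10 minus siControl at D2) minus (siKctd10 minus siControl at D0), called the interaction here, was tested with limma over 13077 genes. It was called, at an adjusted p under 0.05, for 97 genes or 0.742%. The interaction was positive for 49 (0.375%) and negative for 48 (0.367%). By comparison siKctd10 changed 320 genes (2.45%) at D0, 1.48% higher and 0.964% lower, and 621 genes (4.75%) at D2, 2.83% higher and 1.92% lower, and 1311 genes (10%) had an unadjusted interaction p under 0.05. With TPM rescaled by median ratios 132 genes were called and 38.6% of them were positive, against 50.5% here.

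The 97 genes fell into 5 patterns. Called on both days in opposite directions were 4 genes. Called at D0 and not at D2 were 24, of which 12 rose and 12 fell at D0. Called at D2 and not at D0 were 61, of which 30 rose and 31 fell at D2. The other 8 were called on both days in 1 direction (5 genes) or on neither day (3 genes). The estimates of the 2 days had opposite signs in 64 of the 97 genes and in 4918 of all 13077, a share that the contrast itself favours. The lowest call in the ranking, Hspd1 (adjusted p = 0.0481), stood next to Insig1 (-0.51, adjusted p = 0.0502), which was not called.

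Most genes that siKctd10 changed on 1 day did not pass the test of the difference. Of 196 genes called at D0 and not at D2, 24 had a called interaction and 157 (80.1%) had estimates of 1 sign. Of 497 called at D2 and not at D0, 61 had a called interaction and 358 (72%) had estimates of 1 sign. Among 124 genes called on both days 120 moved in 1 direction. The interaction was called for 9 of these 124, and only those 9 are described as differing.

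**Figure D1:**
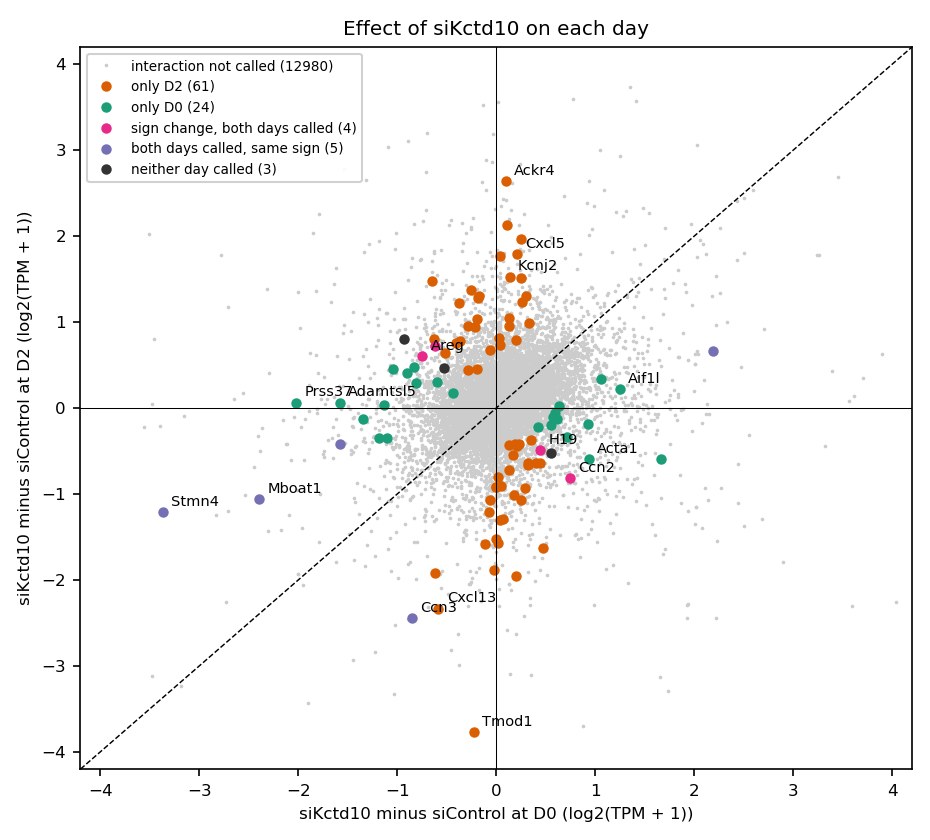
Each point is 1 of the tested genes, with the effect of siKctd10 at D0 on the horizontal axis and at D2 on the vertical axis, both as differences of mean log2(TPM + 1); colours give the pattern of the 97 genes with a called interaction and the dashed line marks equal effects. The 61 genes called only at D2 (orange) spread along the vertical axis and the 24 called only at D0 (green) along the horizontal axis, and 8 genes lie outside the axes.

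Ccn2 gave the smallest interaction p of all genes. It encodes connective tissue growth factor, a secreted matrix protein widely used as a readout of YAP and TEAD and of TGF beta. At D0 it was measured at 51.4, 52.5 and 48.1 TPM in siControl and 90.1, 87.8 and 79.5 in siKctd10. At D2 it was measured at 132, 141 and 134 TPM in siControl and 73.9, 80.5 and 75.8 in siKctd10. The groups did not overlap on either day (over all genes 23.2% did not at D0 and 28.4% at D2), and the order was reversed: siKctd10 raised Ccn2 by 0.75 in undifferentiated cells and lowered it by 0.81 in differentiating cells, a difference of -1.56 (SE 0.11, limma adjusted p = 0.00071). siControl cells at D2 held more Ccn2 than any siKctd10 library of either day. Of 29 YAP and TEAD targets tested it was the only one with a called interaction, against 0.742% over all genes. The list's median effect was 0.44 at D0 and 0.32 at D2, against 0.05 and 0.08 over all genes. Ankrd1 (1.00 and 0.71) and Lats2 (0.87 and 0.77), of the same list, rose on both days.

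H19 and Acta1 shared this direction. H19, an imprinted noncoding RNA of embryonic muscle, was measured at D0 at 82.5, 82.6 and 86.9 TPM in siControl and 104, 120.5 and 120.1 in siKctd10. At D2 it was measured at 972, 1109 and 1008 TPM in siControl and 669.6, 793 and 733 in siKctd10. It was thus higher in all siKctd10 libraries at D0 and lower in all at D2, with effects of 0.44 and -0.49 and an interaction of -0.94 (SE 0.12, limma adjusted p = 0.00973). Acta1, skeletal alpha-actin, was measured at D0 at 102, 72.9 and 87.2 TPM in siControl and 196, 175 and 135 in siKctd10. At D2 it was measured at 1513, 1391 and 1223 TPM in siControl and 885, 969 and 872 in siKctd10. The groups did not overlap on either day. The D0 rise was called (0.94, adjusted p = 0.0169), the D2 difference was not (-0.59, adjusted p = 0.065), and the interaction was -1.53 (SE 0.22, limma adjusted p = 0.0162). Acta1 is also 1 of the 7 myocyte markers summed above. Its coding sequence closely resembles those of the other muscle actins, so reads shared with Acta2 may be divided wrongly between them, which was not tested.

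The opposite reversal was seen in Areg and Fam118a. Areg encodes amphiregulin, a ligand of the EGF receptor. It was measured at D0 at 57.8, 66.5 and 66.7 TPM in siControl and 34.2, 40.1 and 38.4 in siKctd10, and at D2 at 5.85, 6.72 and 4.73 TPM in siControl and 9.80, 8.43 and 9.40 in siKctd10. It fell at D0 (-0.74) and rose at D2 (0.60), with no overlap on either day and an interaction of 1.35 (SE 0.19, limma adjusted p = 0.0132). Fam118a was measured at D0 at 27.0, 27.7 and 27.2 TPM in siControl and 18.2, 15.3 and 19.2 in siKctd10, and at D2 at 32.4, 38.0 and 31.2 TPM in siControl and 54.7, 51.1 and 64.1 in siKctd10, with an interaction of 1.34 (SE 0.17, limma adjusted p = 0.00923). Without the siKctd10 libraries numbered 3 the adjusted p was 0.0619 for Areg and 0.0521 for H19, while Ccn2 (0.00285), Fam118a (0.0218) and Acta1 (0.0218) kept their calls.

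Ccn3, a relative of Ccn2, fell on both days. It was measured at D0 at 7.73, 9.30 and 10.4 TPM in siControl and 4.41, 5.12 and 4.29 in siKctd10, and at D2 at 224, 223 and 227 TPM in siControl and 41.7, 37.8 and 41.8 in siKctd10. Its level in siControl was far higher at D2, and the fall was larger there (-2.45) than at D0 (-0.85), with an interaction of -1.60 (SE 0.16, limma adjusted p = 0.00371). Ccn2 and Ccn3 were the 2 genes called among 26 of the CCN, TGF beta and BMP list, against 0.742% over all genes.

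**Figure D2:**
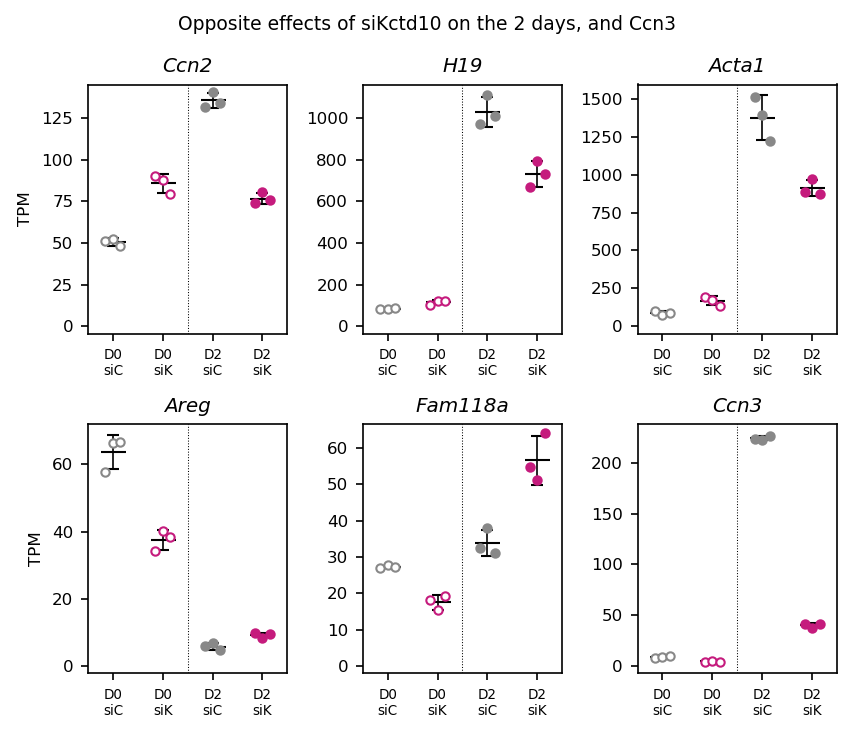
TPM per library (points) for 6 genes, with the group mean (horizontal mark) and SD (bars, n = 3), at D0 (open) and D2 (filled), in siControl (siC, grey) and siKctd10 (siK, magenta). In Ccn2, H19 and Acta1 siKctd10 is above siControl at D0 and below it at D2, in Areg and Fam118a the order is the reverse, and in Ccn3 it is below on both days.

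Acta1 is a textbook target of SRF, which binds CArG boxes, and of TEAD factors. Its RefSeq promoter (GRCm38.p6, chr8:123894726-123895025, minus strand, from 250 bases before to 50 after the start site) is shown because the order of Acta1 reversed between the days. Its capitals mark, from left to right, the CArG box (73 bases before the start site) and a TEAD motif (GGAATG, on the antisense strand, 46 bases before).
Acta1 promoter: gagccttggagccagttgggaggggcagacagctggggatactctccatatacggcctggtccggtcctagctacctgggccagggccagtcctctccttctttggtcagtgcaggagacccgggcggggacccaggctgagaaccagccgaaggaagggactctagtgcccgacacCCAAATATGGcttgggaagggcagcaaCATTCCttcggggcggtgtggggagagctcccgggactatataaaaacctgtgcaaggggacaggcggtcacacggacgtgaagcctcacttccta
A CArG box lay in 3 of 52 promoters (5.8%) of genes with a negative interaction, those of Acta1 and Ldb3. The Ldb3 promoters overlap and share the same box, which is therefore counted more than once. A CArG box lay in 0 of 41 promoters of genes with a positive interaction, and in 1.4% of 12577 promoters of tested genes. Searched on both strands, GGAATG lay in 21.2%, 9.8% and 12.1% of these sets, the E-box CAGCTG in 25.0%, 31.7% and 15.5%, and the AP-1 motif (TGACTCA or TGAGTCA) in 11.5%, 2.4% and 3.8%. The promoter table matched 34 of the 48 and 32 of the 49 genes, and a match is only a run of letters.

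Among the 31 genes that fell at D2 only, several encode muscle proteins and were barely expressed at D0. Myh8, the perinatal myosin heavy chain, was measured at D0 at 0, 0.0251 and 0.0266 TPM in siControl and 0, 0.0284 and 0.0272 in siKctd10, and at D2 at 16.4, 16.2 and 18.7 TPM in siControl and 4.54, 5.06 and 6.34 in siKctd10. Every siKctd10 library at D2 lay below the siControl libraries, at -1.53, and the interaction was -1.53 (SE 0.17, limma adjusted p = 0.0052). Casq1, the calcium store protein of the sarcoplasmic reticulum, gave 10.1, 8.18 and 8.06 TPM in siControl and 2.50, 2.39 and 1.95 in siKctd10 at D2, with at most 0.178 TPM in any D0 library and an interaction of -1.59 (SE 0.19, limma adjusted p = 0.00593). Smpx, a small stretch-responsive muscle protein, gave 61.1, 66.5 and 49.1 TPM in siControl and 23.1, 16.3 and 16.3 in siKctd10 at D2. It was listed at 0 in the D0 siControl libraries and at no more than 0.676 TPM in the D0 siKctd10 libraries, with an interaction of -2.10 (SE 0.31, limma adjusted p = 0.0166). With voom on estimated read pairs these calls were lost, at an adjusted p of 0.656 for Myh8, 0.488 for Casq1 and 0.16 for Smpx.

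Tmod1, the tropomodulin that caps the pointed ends of actin filaments, had the largest negative interaction among the called genes. It was measured at D2 at 48.9, 42.4 and 33.3 TPM in siControl and 3.31, 2.59 and 0.909 in siKctd10, and at no more than 0.793 TPM in any D0 library, with an interaction of -3.54 (SE 0.39, limma adjusted p = 0.00517). A gene on the other strand at this place was expressed at up to 69.9 TPM in these libraries. Whether the counting used strand is not given in the sources used here, so reads of the 2 genes may not be told apart. With voom on estimated read pairs the adjusted p for Tmod1 was 0.088.

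Ldb3 was expressed on both days. This protein links alpha-actinin to signalling enzymes at the Z-disc, where actin filaments of neighbouring sarcomeres are anchored. At D0 it was measured at 11.02, 8.78 and 10.3 TPM in siControl and 12.9, 13.1 and 12.4 in siKctd10, and at D2 at 46.5, 53.5 and 50.9 TPM in siControl and 29.4, 33.9 and 31.1 in siKctd10. It was higher in all siKctd10 libraries at D0 (0.33, not called) and lower in all at D2 (-0.66), with an interaction of -0.98 (SE 0.16, limma adjusted p = 0.0229). Mylk4, a kinase of the myosin light chain kinase family, had the same order, 0.908 ± 0.195 against 1.81 ± 0.348 TPM at D0 and 11.2 ± 0.799 against 7.47 ± 0.521 TPM at D2, was called on neither day and had an interaction of -1.08 (SE 0.19, limma adjusted p = 0.0339). Sntb1, a syntrophin of the dystrophin complex, had it as well (4.28 ± 0.612 against 6.196 ± 0.850 TPM at D0, 23.1 ± 0.675 against 14.6 ± 1.85 TPM at D2). The Z-disc protein Mypn (interaction -0.92), the muscle kinase Srpk3 (-0.95) and the small heat shock protein Hspb3 (-1.35) were listed at or near 0 at D0.

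Over the whole sarcomere list 5 of 47 tested genes had a called negative interaction (Tmod1, Myh8, Acta1, Ldb3 and Mylk4) and none a positive one, against 0.367% negative over all genes. The call held in all 23 alternatives in which Acta1 was tested, in 22 of 23 for Tmod1, 21 of 23 for Myh8, 15 of 23 for Ldb3 and 9 of 24 for Mylk4. The median interaction was -0.75 against 0.02 over all genes, and 42 of 47 lay below 0, against 6129 of all 13077. The median effect was 0.04 at D0 and -0.52 at D2. The summed myocyte markers, Acta1 among them, were lower in every siKctd10 library at D2 as well, and their part in these results was not tested. Many of these genes are near 0 at D0, where the interaction repeats the D2 difference. In 17 of the 97 genes, all of them called only at D2, both groups had a mean under 1 TPM at D0, and a D0 effect was not detectable at that level. Of the 31 genes that fell at D2 only 14 were of this kind.

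The regulators of differentiation did not pass this test. Myod1 was measured at D0 at 75.4, 74.2 and 75.9 TPM in siControl and 79.4, 80.6 and 79.0 in siKctd10, and at D2 at 254, 240.1 and 241 TPM in siControl and 189.5, 200.2 and 179 in siKctd10. It was lower in every siKctd10 library at D2 and slightly higher in every one at D0, with an interaction of -0.45 (SE 0.09, limma adjusted p = 0.0505), just outside the threshold. Myog, myogenin, gave 12.1 ± 2.09 against 10.1 ± 0.936 TPM at D0 and 324 ± 36.8 against 192 ± 20.8 TPM at D2, with an interaction of -0.52 (SE 0.20, limma adjusted p = 0.385). Of 16 myogenic transcription factors none was called (median -0.22), and of 28 fusion genes none (median -0.11), with -0.53 (adjusted p = 0.486) for Mymk, the fusion protein myomaker. The interactions of the calcium pump Atp2a1 (-1.28, adjusted p = 0.0957) and the creatine kinase Ckm (-1.31, adjusted p = 0.125) missed the threshold, which does not show that days were alike.

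Cxcl13, Dpt and Itga4 were also called lower at D2 only. Cxcl13, a chemokine that attracts B cells, was measured at D0 at 5.99, 3.69 and 3.78 TPM in siControl and 2.08, 3.14 and 2.65 in siKctd10, and at D2 at 66.6, 61.7 and 59.1 TPM in siControl and 12.7, 12.7 and 9.62 in siKctd10. The siKctd10 libraries lay below siControl on both days, but the fall was called only at D2, with an interaction of -1.75 (SE 0.27, limma adjusted p = 0.0191). Its adjusted p was 0.0678 with voom and 0.0821 without the siKctd10 libraries numbered 3. Dpt, the matrix protein dermatopontin, fell from 7.30 ± 1.03 to 1.14 ± 0.141 TPM at D2 and was under 1 TPM at D0 (interaction -2.15). Itga4, the integrin alpha 4 subunit that binds VCAM1 and fibronectin, fell from 40.4 ± 4.31 to 10 ± 1.41 TPM at D2 with an interaction of -1.29. It was also lower in every siKctd10 library at D0 (2.97 ± 0.43 against 1.575 ± 0.115 TPM). That D0 difference lay just outside the threshold (-0.62, limma adjusted p = 0.0514).

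Pde2a, a phosphodiesterase of cyclic nucleotides, gave 14.2 ± 0.629 against 17.6 ± 0.512 TPM at D0 and fell from 22.0 ± 1.57 to 11.1 ± 0.448 TPM at D2 (interaction -1.22, SE 0.14, limma adjusted p = 0.00517). The keratin Krt80 gave 78.2 ± 3.28 against 85.9 ± 4.01 TPM at D0 and fell from 168 ± 6.72 to 102 ± 4.02 TPM at D2 (interaction -0.85), with an antisense neighbour at up to 11.9 TPM. Reep1, which shapes the endoplasmic reticulum, fell from 19.8 ± 0.937 to 8.01 ± 0.681 TPM at D2 (interaction -1.14). Pde2a, Krt80 and Reep1 were expressed at D0 at levels where a change could have been seen. Ccnd3, the cyclin D retained in differentiating myoblasts, was the single called gene of 53 in the cell cycle list (164 ± 17.4 against 210.2 ± 17.0 TPM at D0, 391 ± 17.3 against 303 ± 5.95 TPM at D2, interaction -0.72). Its antisense neighbour was at up to 34 TPM. Pmaip1, the death-promoting protein Noxa, was the single called gene of 19 p53 targets (19.3 ± 1.31 against 22.8 ± 0.193 TPM at D0, 115 ± 6.91 against 85.8 ± 3.67 TPM at D2, interaction -0.65). The share called over all genes was 0.742%, and 1 call in lists of this size says little about the lists. Ext1, an enzyme that builds heparan sulfate, fell from 388 ± 7.01 to 289.8 ± 8.34 TPM at D2 (interaction -0.61).

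The 30 genes that rose at D2 only were led by Kcnj2, whose interaction had the second smallest p of all. Kcnj2 encodes the inward rectifier potassium channel Kir2.1, which is known to hyperpolarise myoblasts before fusion. At D0 it was measured at 45.6, 43.9 and 44.9 TPM in siControl and 50.03, 48.1 and 49.8 in siKctd10, and at D2 at 24.9, 25.4 and 28.1 TPM in siControl and 77.6, 75.2 and 78.7 in siKctd10. In siControl the level was lower at D2 than at D0, whereas in siKctd10 it was higher, and the interaction was 1.39 (SE 0.11, limma adjusted p = 0.000992). The sodium channel gene Scn7a (13.6 ± 0.605 against 33.2 ± 1.94 TPM at D2, interaction 1.60) and the mechanically gated channel gene Piezo2 (13.3 ± 0.558 against 24.1 ± 2.16 TPM, 0.79) also rose at D2 only.

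Cxcl5 and Pdk4 likewise kept a higher level in siKctd10 at D2. Cxcl5, a chemokine for neutrophils, was measured at D0 at 119, 135 and 130.1 TPM in siControl and 137, 158 and 149 in siKctd10, and at D2 at 13.3, 13.4 and 14.0 TPM in siControl and 49.6, 42.8 and 57.1 in siKctd10, with an interaction of 1.59 (SE 0.16, limma adjusted p = 0.00348). In siControl every D2 library lay far below the D0 libraries, and the siKctd10 libraries at D2 lay between them. Pdk4, the kinase that shuts pyruvate out of oxidation, was measured at D0 at 66.7, 80.6 and 70.5 TPM in siControl and 86.1, 91.7 and 80.7 in siKctd10, and at D2 at 18.9, 22.9 and 20.5 TPM in siControl and 63.4, 58.3 and 61.4 in siKctd10, with an interaction of 1.27 (SE 0.14, limma adjusted p = 0.0052). Pdk4 was the single called gene among 13 of muscle metabolism, against 0.742% over all genes. Cdhr1, a cadherin-related protein, also kept a higher level in siKctd10 at D2, but its groups overlapped at D0 (20.1 ± 0.852 against 17.96 ± 3.72 TPM at D0, 6.92 ± 1.05 against 18.5 ± 0.869 TPM at D2, interaction 1.48).

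Of 20 tested genes of the Wnt list 3 had a called positive interaction, Sfrp2, Fzd1 and Lgr5, against 0.375% over all genes, and these 3 were called higher at D2 and not at D0. Sfrp2, a secreted Wnt modulator, was measured at D0 at 8.35, 9.07 and 9.20 TPM in siControl and 8.07, 6.79 and 6.93 in siKctd10, and at D2 at 34.8, 29.9 and 33.9 TPM in siControl and 95.1, 85.0 and 80.3 in siKctd10. It was slightly lower in all siKctd10 libraries at D0 and higher in all at D2, with an interaction of 1.63 (SE 0.16, limma adjusted p = 0.00348). The Wnt receptor gene Fzd1 gave 70.5 ± 2.87 against 67.6 ± 7.52 TPM at D0 and rose from 155 ± 8.20 to 249 ± 20.5 TPM at D2 (0.74). Lgr5, the R-spondin receptor gene, was under 1 TPM at D0 and rose from 0.896 ± 0.127 to 2.68 ± 0.137 TPM at D2 (1.24). With voom the adjusted p was 0.078 for Fzd1 and 0.0611 for Lgr5. No gene of the list had a called negative interaction, and 2 of 20 lay below 0, against 6129 of 13077 over all genes. The list's median interaction was 0.37 (-0.15 at D0, 0.30 at D2). Dkk2, a secreted Wnt modulator, was the 1 gene of the list called lower at D2 (-1.31), and it fell at D0 as well (-0.72), with an interaction adjusted p of 0.132. The ligand gene Wnt10b fell at D0 (-0.88, adjusted p = 0.00955) and had 0.02 at D2, with an interaction adjusted p of 0.0702. Wnt7b, a ligand outside that list, gave 21.6 ± 1.60 against 14.7 ± 2.15 TPM at D0 and 9.67 ± 1.08 against 13.7 ± 0.995 TPM at D2, was called on neither day and had an interaction of 0.99 (SE 0.19, limma adjusted p = 0.048).

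Col12a1, Bmper, Pi15 and Pappa also rose at D2 only. Col12a1, a collagen of fibril surfaces, was measured at D0 at 30.4, 27.4 and 33.7 TPM in siControl and 36.7, 39.6 and 36.8 in siKctd10, and at D2 at 75.0, 89.1 and 85.5 TPM in siControl and 206, 208 and 206 in siKctd10, with an interaction of 1.01 (SE 0.13, limma adjusted p = 0.00973). The groups overlapped on neither day and the D2 rise was the larger. Bmper, a BMP-binding protein, rose from 19.04 ± 1.28 to 40.4 ± 3.38 TPM (interaction 0.92), Pi15, a protease inhibitor, from 14.2 ± 0.294 to 35.0 ± 2.22 TPM (0.97), and Pappa, the protease that cleaves IGF-binding proteins, from 0.936 ± 0.255 to 3.69 ± 0.399 TPM (1.46). Col8a2 and the sulfatase gene Sulf2 were lower in siKctd10 at D0 (not called) and higher at D2, with interactions of 1.43 and 1.16. The matrix list as a whole had 2 positive calls (Col12a1, Col6a2) among 45 genes, against 0.375% over all genes, with a median of 0.08.

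Tpp1, a lysosomal protease, rose from 30.0 ± 0.904 to 121 ± 13.7 TPM at D2 (interaction 1.72, SE 0.18, limma adjusted p = 0.00493), and the rise came from a gene with several transcripts. Ackr4, a scavenging receptor of chemokines, rose from 4.33 ± 0.936 to 32.7 ± 9.04 TPM, the largest positive interaction among the called genes (2.55). It was under 1 TPM in both D0 means, an antisense neighbour reached 8.08 TPM, and with voom the adjusted p for Ackr4 was 0.0861. Lrp4, the agrin coreceptor of the neuromuscular junction, rose from 56.6 ± 3.97 to 114 ± 3.15 TPM (0.66), against Casq1 as the only negative call among 26 genes of calcium handling and the junction, where the median was -0.57. Ets2, a transcription factor, gave 143 ± 6.81 against 125 ± 7.94 TPM at D0 and rose from 157 ± 4.55 to 215 ± 3.66 TPM at D2 (0.65).

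**Figure D3:**
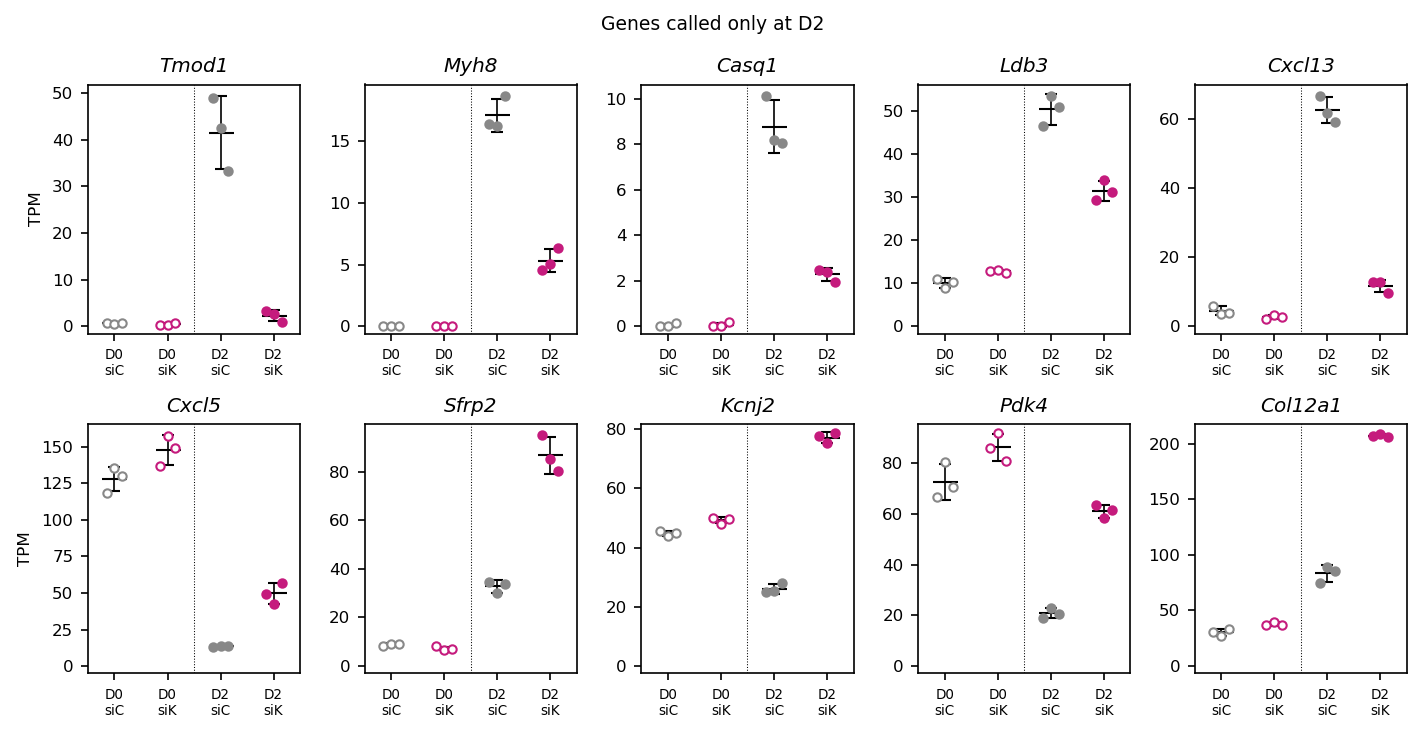
TPM per library (points) for 10 genes called only at D2, with the group mean and SD (n = 3), at D0 (open) and D2 (filled), in siControl (siC, grey) and siKctd10 (siK, magenta). Tmod1, Myh8 and Casq1 are near 0 at D0 and lower in siKctd10 at D2, while Cxcl5, Kcnj2 and Pdk4 are lower at D2 than at D0 in siControl and stay higher in siKctd10.

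The 12 genes that rose at D0 only were all expressed on both days. Igfbp5, an IGF-binding protein abundant in myoblasts, was measured at D0 at 1574, 1456 and 1703 TPM in siControl and 2301, 2438 and 2516 in siKctd10, and at D2 at 4997, 5216 and 4985 TPM in siControl and 4693, 4497 and 4666 in siKctd10. The siKctd10 level lay above siControl at D0 (0.62) and below it in every library at D2 (-0.13, not called), with an interaction of -0.75 (SE 0.09, limma adjusted p = 0.00629). Aif1l, an actin-binding protein, was measured at D0 at 60.0, 73.4 and 64.0 TPM in siControl and 165, 164 and 143 in siKctd10, and at D2 at 126, 131 and 135 TPM in siControl and 150.4, 157 and 151 in siKctd10, with an interaction of -1.02 (SE 0.12, limma adjusted p = 0.00629). For Aif1l the siKctd10 libraries at D0 lay above the siControl libraries at D2. Cavin2, a coat protein of caveolae, was measured at D0 at 56.6, 59.3 and 67.9 TPM in siControl and 114, 108 and 131 in siKctd10, and at D2 at 180.2, 171 and 195 TPM in siControl and 159, 155 and 168 in siKctd10, with an interaction of -1.11 (SE 0.14, limma adjusted p = 0.00708). Npnt, a matrix ligand of integrin alpha 8 beta 1, gave 105 ± 9.01 against 163 ± 4.46 TPM at D0 and 140.5 ± 5.83 against 143 ± 5.26 TPM at D2 (interaction -0.60).

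Lipid genes were among them. Scd1, which desaturates fatty acids, was measured at D0 at 539, 556 and 596 TPM in siControl and 763, 906 and 862 in siKctd10, and at D2 at 1690, 1824 and 1890 TPM in siControl and 1700, 1662 and 1646 in siKctd10. It rose at D0 only (0.58 against -0.11), with an interaction of -0.69 (SE 0.11, limma adjusted p = 0.0202). Fdft1, squalene synthase, gave 47.8 ± 2.66 against 72.7 ± 1.78 TPM at D0 and 91.1 ± 4.33 against 87.7 ± 7.65 TPM at D2 (interaction -0.66, SE 0.12, limma adjusted p = 0.0409), with an antisense neighbour at up to 257 TPM. Mfsd2a, a transporter of lysophospholipids, gave 13.6 ± 1.38 against 23.1 ± 3.96 TPM at D0 and 32.0 ± 0.296 against 25.2 ± 1.62 TPM at D2 (-1.05).

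In the cholesterol synthesis list 9 of 27 genes rose at D0 (1.48% over all genes) and 2 at D2 (2.83%), and none fell. The median effect was 0.47 at D0 and 0.12 at D2, and the median interaction was -0.39. Below 0 lay 20 of 27 interactions, against 6129 of 13077 over all genes. Fdft1 was the only called interaction, against 0.742% over all genes. Insig1 (-0.51), which retains the sterol sensor in the endoplasmic reticulum, and Srebf1 (-0.63, adjusted p = 0.0514), a master regulator of lipid synthesis, lay just outside the threshold.

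Ercc3, a helicase subunit of TFIIH, was measured at D0 at 39.6, 45.9 and 42.4 TPM in siControl and 130.4, 140.4 and 140 in siKctd10, and at D2 at 129.8, 142 and 139 TPM in siControl and 128, 49.95 and 115 in siKctd10. The D2 value of siKctd10 library 2 stands apart from the others, and this gene has several transcripts. Without that library the interaction stayed called, and it was lost in 12 other alternatives.

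The 12 genes that fell at D0 only included Adamtsl5, a matrix protein related to the ADAMTS proteases. It was measured at D0 at 40.0, 41.4 and 35.6 TPM in siControl and 12.6, 12.2 and 12.2 in siKctd10, and at D2 at 34.9, 32.7 and 32.8 TPM in siControl and 37.6, 36.0 and 31.4 in siKctd10. The groups were far apart at D0 and overlapped at D2, with an interaction of 1.64 (SE 0.14, limma adjusted p = 0.00189). Pros1, the anticoagulant protein S, was measured at D0 at 55.6, 65.7 and 55.2 TPM in siControl and 36.6, 39.5 and 39.3 in siKctd10, and at D2 at 63.9, 70.0 and 72.5 TPM in siControl and 81.6, 82.9 and 91.6 in siKctd10. It was lower in all siKctd10 libraries at D0 and higher in all at D2 (not called), with an interaction of 0.91 (SE 0.13, limma adjusted p = 0.0165). Ch25h, which makes 25-hydroxycholesterol, had the same order (38.0 ± 2.28 against 21.1 ± 3.46 TPM at D0, 27.8 ± 3.73 against 39.0 ± 1.11 TPM at D2, interaction 1.31, SE 0.19, limma adjusted p = 0.0164), as did Col6a2 (93.1 ± 3.33 against 68.9 ± 5.56 TPM at D0, 183 ± 1.95 against 207 ± 9.25 TPM at D2).

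Part of these genes were low at D2 in both groups. Ngfr, the p75 neurotrophin receptor, fell from 32.2 ± 3.87 to 12.1 ± 1.57 TPM at D0 and was at 2.14 ± 0.346 against 1.86 ± 0.240 TPM at D2 (interaction 1.21). Itgb7, an integrin beta subunit, fell from 142 ± 9.49 to 80.2 ± 6.2 TPM at D0 and was at 6.93 ± 1.62 against 8.62 ± 0.521 TPM at D2 (1.11). Prss37 (2.08) and Cpn1 (1.17) had means under 1 TPM at D2, where an effect was not detectable, and with voom their adjusted p was 0.119 and 0.109.

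Hspd1, Trim37, Ube2j1 and Mboat1 fell further at D0 than at D2. Ube2j1, a ubiquitin-conjugating enzyme of the endoplasmic reticulum, was measured at D0 at 116, 118 and 129 TPM in siControl and 41.8, 42.2 and 35.6 in siKctd10, and at D2 at 93.2, 108 and 103 TPM in siControl and 75.6, 82.1 and 69.3 in siKctd10. It fell on both days, by 1.58 and 0.42, with an interaction of 1.16 (SE 0.14, limma adjusted p = 0.00629). Mboat1, a lysophospholipid acyltransferase, was measured at D0 at 43.9, 41.8 and 42.6 TPM in siControl and 6.41, 8.92 and 6.78 in siKctd10, and at D2 at 32.7, 31.8 and 30.5 TPM in siControl and 12.7, 17.9 and 13.9 in siKctd10 (interaction 1.34, SE 0.21, limma adjusted p = 0.0205). Hspd1, the mitochondrial chaperonin, was measured at D0 at 331, 429.8 and 409.9 TPM in siControl and 158, 168 and 186 in siKctd10, and at D2 at 107, 126 and 124 TPM in siControl and 94.7, 92.2 and 91.0 in siKctd10, and its D2 difference was not called. The interaction of Hspd1 kept its call in 5 of 24 alternatives. Trim37, a ubiquitin ligase, gave 43.6 ± 1.48 against 19.8 ± 0.407 TPM at D0 and 32.6 ± 0.915 against 25.4 ± 2.09 TPM at D2 (interaction 0.75, SE 0.12, limma adjusted p = 0.0272). Stmn4, a microtubule-destabilising stathmin, fell by 3.37 at D0 and by 1.21 at D2 (interaction 2.16, SE 0.38, limma adjusted p = 0.0381). The host transcript Mir155hg rose on both days, by 2.19 at D0 and 0.67 at D2.

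**Figure D4:**
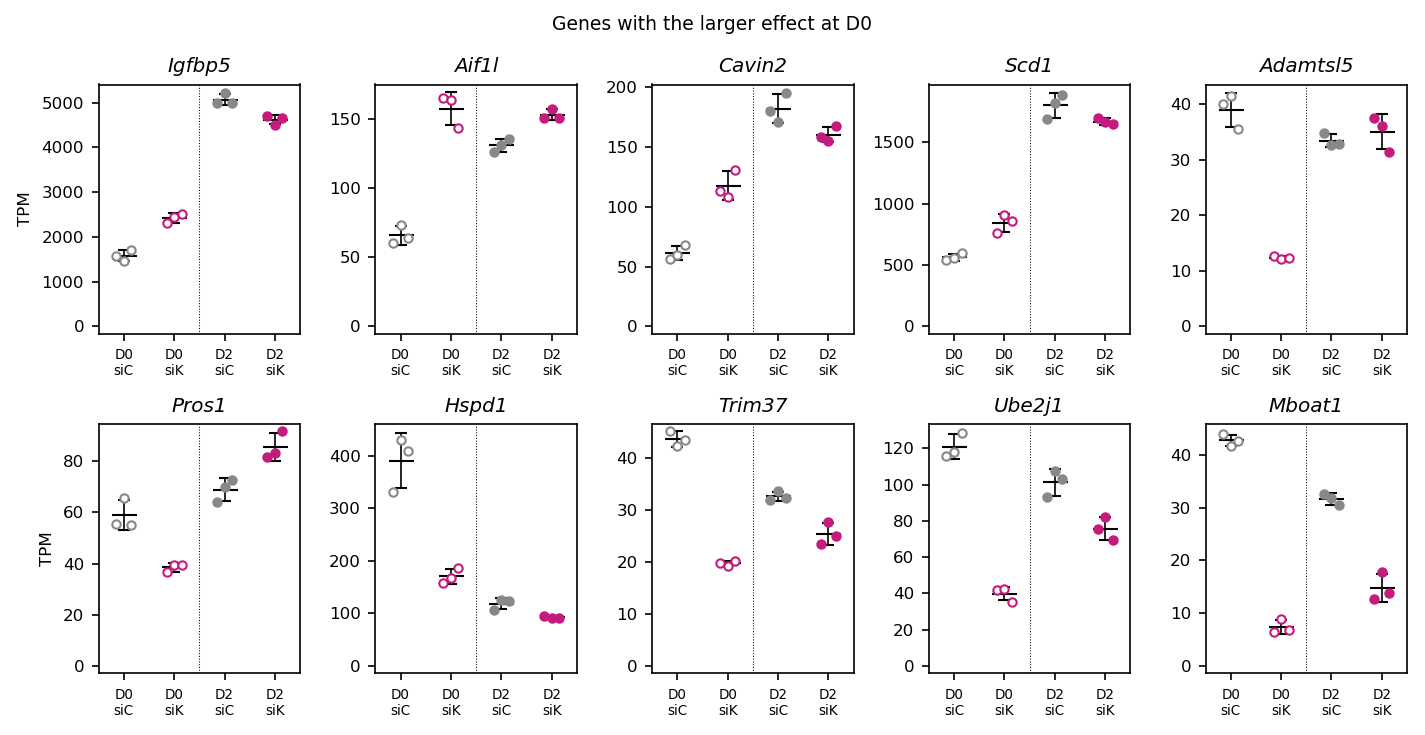
TPM per library (points) for 10 genes whose siKctd10 effect was larger at D0, with the group mean and SD (n = 3), at D0 (open) and D2 (filled), in siControl (siC, grey) and siKctd10 (siK, magenta). Igfbp5, Aif1l, Cavin2 and Scd1 rise at D0 and the other 6 fall, Ube2j1 and Mboat1 being called on both days.

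An siRNA guide can also lower other mRNAs that pair with its seed, in the way a miRNA does. The letters GACGATA, which pair with positions 2 to 8 of the siKctd10 guide, were in the longest annotated 3′ UTR of 129 of 11992 tested genes (1.1%). Among the 94 interaction genes with such a UTR 4 held them, and these were Hspd1, Mboat1, Trim37 and Ube2j1, each with a larger fall at D0 than at D2. Of genes called lower at D0 12 of 124 (9.7%) held the letters, against 3 of 190 (1.6%) called higher. At D2 it was 10 of 240 (4.2%) lower and 2 of 362 (0.6%) higher. The 129 genes had a median effect of -0.11 at D0 and -0.01 at D2, against 0.05 and 0.08 over all genes with a UTR. The part of seed pairing in the interactions of these 4 genes was not tested. None of the other interaction genes with a UTR, Ccn2, Acta1, Kcnj2, Cxcl5 and Igfbp5 among them, held these letters there. Letters that pair with the seed of the siControl guide were in the UTR of 3426 of the 11992 genes. Their median effect was 0.08 at D0 and 0.1 at D2. Of them 12 had a called negative and 16 a called positive interaction, against 46 and 48 of all genes with a UTR. The part of siControl seed pairing was not tested.

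In the remaining lists few or no interactions were called. The share over all genes was 0.742%, at which lists this small would usually hold few or none, so these counts do not set the lists apart. There was none among 53 genes of actin assembly (median 0.04), 34 SRF and MRTF targets (-0.15), 24 of the KCTD and CUL3 ligase list (0.07), 29 of the ATF4 and ER stress list (0.05), 20 of interferon response (-0.10), 14 of the Notch pathway (-0.33) or 34 of oxidative phosphorylation (-0.14). Among 18 chemokines and cytokines Cxcl5 was the only positive and Cxcl13 the only negative call. Acta1, an SRF target with a called interaction, is not on the SRF and MRTF list, whose median effect was 0.16 on each day. Tagln, a smooth muscle actin-bundling protein, rose by 1.40 at D0 and 0.68 at D2, with an interaction of -0.71 (SE 0.15, limma adjusted p = 0.0831). Acta2, smooth muscle alpha-actin, rose by 1.38 and 0.91 (interaction -0.47, SE 0.18, limma adjusted p = 0.4), whereas the order of its skeletal relative Acta1 reversed between the days. Destrin (Dstn), which severs actin filaments, rose at D0 (0.50, adjusted p = 0.00466) and gave 0.06 at D2, with an interaction adjusted p of 0.0751.

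**Figure D5:**
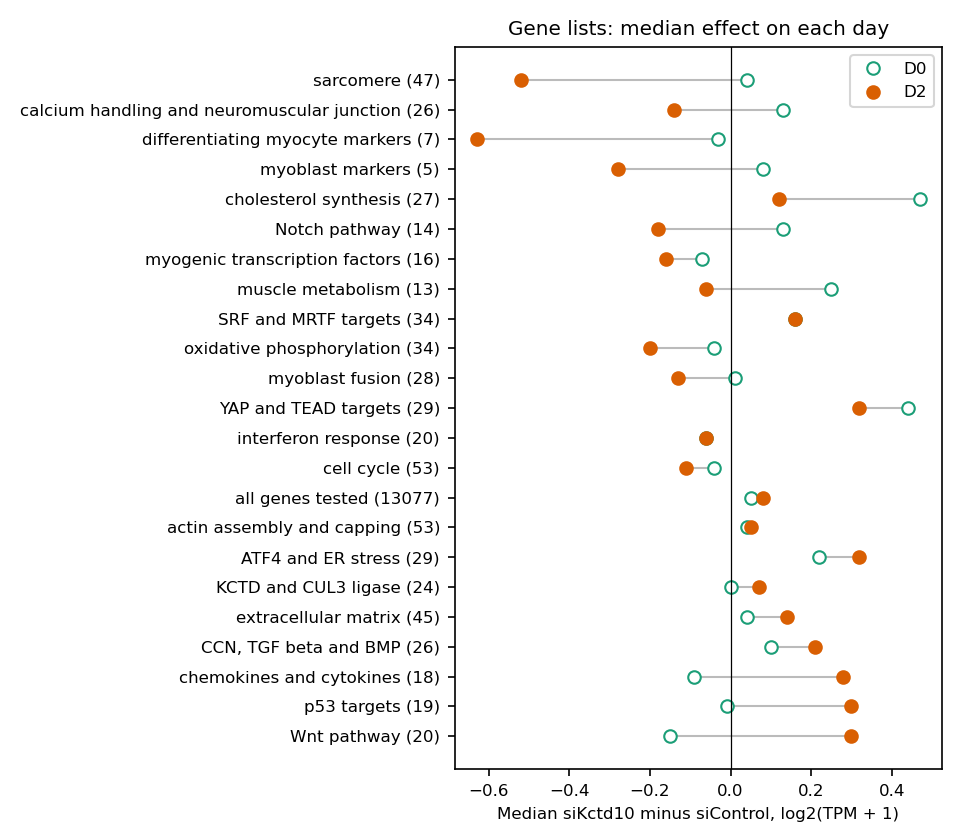
Median effect of siKctd10 at D0 (open) and D2 (filled) over the tested members of each gene list with at least 5 tested members (number in brackets), as a difference of log2(TPM + 1), with lists ordered by median interaction. The sarcomere median is 0.04 at D0 and -0.52 at D2, the Wnt pathway goes from -0.15 to 0.30, and that of all genes tested is 0.05 and 0.08.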

How the data were processed

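Poly(A) RNA was sequenced from 12 libraries. Per the file headers, transcript coverage and TPM were estimated with StringTie 1.3.3b, and the authors deposited TPM for 63759 known transcripts. Per the submitters' processing notes, the build was mm10 and the tools included HISAT, SAMtools, DESeq2 and StringTie 1.1.3. The deposited values are estimates, so no count test was used. Transcripts were matched to GENCODE genes on GRCm38 by identical introns (42608) or at least 50% exon overlap (13473), and 88.0% matched. Unmatched transcripts held 3.82 to 4.63% of TPM. Depth was estimated from coverage and length at 202 bases per pair, so no counting interval was computed.

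Gene TPM was summed over transcripts, and the 13077 genes reaching 1 TPM in 3 or more libraries were tested, 662 of them with a 0 somewhere. The log2(TPM + 1) values, which understate changes of low genes, were fitted with limma 3.58.1 (4 group means, trend, robust, 8 residual degrees of freedom, two-sided, Benjamini-Hochberg threshold 0.05) in R 4.3.3. The fit was also run on simulated data with independent normal noise and no batch. Such data follow the model of the fit and could not test for a batch shared between libraries. Genes with 1 matched transcript that shares no exon base on its strand are called single-transcript (4024). Of the 97 called genes 44 are of this kind (1.09% of them, against 0.585% of 9053 others), and the values of the others are uncertain because reads are divided between transcripts. The single-transcript ones named in the text are Sntb1, Scd1, Hspd1, Fzd1, Ube2j1, Reep1, Pmaip1, Cdhr1, Wfs1, Pros1, Mboat1, Fdft1, Ext1, Colec12, Col8a2, Ccn2, Cavin2, Sfrp2, Ets2, Cxcl13, Hspb3, Srpk3, Ccn3, Pdk4, Mylk4, Pi15, Cxcl5, Prss37, Itgb7, Mfsd2a, Areg, Ch25h, Aif1l, Gatm, Bmper, Ngfr and Dpt.

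Members and gene lists were chosen with earlier results of these data known. Named genes were, per direction, the 10 single-transcript genes with the smallest interaction p at a group mean of at least 5 TPM, the 5 largest interactions among other genes, the 6 smallest p per pattern, 4 per gene list and a fixed set of actin, muscle and YAP genes. Of the genes this rule gives, those with a called interaction are named, except 1 that is not reported here, and only some of the others are. Other called genes were named after their values were seen. Alternatives were another pseudocount, filter, scaling or variance model, voom on estimated read pairs, single-transcript genes only, a replicate block, each library left out in turn, and, chosen after seeing the data, TPM summed over loci and both siKctd10 libraries numbered 3 left out.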

Additional observations from a re-analysis of the deposited data

Results flagged for a closer look

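The effect of siKctd10 differed between the days by the interaction test for each gene below, and the values are interactions on the log2(TPM + 1) scale, negative where siKctd10 lay lower relative to siControl at D2 than at D0.

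Among genes with opposite calls on the 2 days the interaction was -1.56 for Ccn2, -0.94 for H19, 1.35 for Areg and 1.34 for Fam118a. Acta1, called at D0 alone with the opposite order at D2, gave -1.53. Genes that fell at D2 gave -3.54 for Tmod1, -2.10 for Smpx, -1.59 for Casq1, -1.53 for Myh8, -0.98 for Ldb3, -2.15 for Dpt, -1.75 for Cxcl13, -1.60 for Ccn3, -1.22 for Pde2a, -1.14 for Reep1, -0.85 for Krt80, -0.72 for Ccnd3, -0.65 for Pmaip1 and -0.61 for Ext1. Those that rose at D2 gave 2.55 for Ackr4, 1.72 for Tpp1, 1.63 for Sfrp2, 1.59 for Cxcl5, 1.48 for Cdhr1, 1.39 for Kcnj2, 1.27 for Pdk4, 1.24 for Lgr5, 1.01 for Col12a1, 0.74 for Fzd1, 0.66 for Lrp4 and 0.65 for Ets2. Lrrn3, a leucine-rich repeat membrane protein, was called on neither day and gave 1.73.

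Genes with the larger effect at D0 gave negative values where they rose there, -2.26 for Ercc3, -1.11 for Cavin2, -1.02 for Aif1l, -0.75 for Igfbp5, -0.75 for Wfs1, -0.69 for Scd1 and -0.66 for Fdft1. They gave positive values where they fell there, 2.16 for Stmn4, 2.08 for Prss37, 1.64 for Adamtsl5, 1.31 for Ch25h, 1.17 for Cpn1, 1.16 for Ube2j1, 0.91 for Pros1 and 0.61 for Col6a2.

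With voom on estimated read pairs the calls of Ackr4, Casq1, Cpn1, Cxcl13, Fzd1, Lgr5, Myh8, Prss37, Smpx and Tmod1 were lost (adjusted p 0.0611 to 0.656). Without both siKctd10 libraries numbered 3 those of Areg, Ccnd3, Col12a1, Cpn1, Cxcl13, Ercc3, Ext1, Fdft1, H19, Ldb3, Lgr5, Lrp4, Lrrn3, Pmaip1, Pros1, Reep1, Scd1, Smpx and Stmn4 were lost (0.0521 to 0.15).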

How the results depend on the processing

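Over 24 alternatives none of the 97 called genes changed the sign of its interaction, 23 were called in every alternative in which they were tested, Ccn2, Cxcl5, Sfrp2, Ccn3, Pdk4 and Kcnj2 among them, and 42 in at least 20. The number of calls moved more. With each library left out in turn it was 52 to 82 for the interaction, 118 to 306 at D0, 316 to 682 at D2, 1 to 6 for opposite calls, 12 to 24 for D0 only and 30 to 55 for D2 only. Each of 5 libraries lowered the interaction count by over 1.5 times when left out, D0 siControl 1 (52), D0 siKctd10 1 (58), D2 siControl 2 (55), D2 siControl 3 (62) and D2 siKctd10 1 (57). Without both siKctd10 libraries numbered 3 there were 63 calls (40 of the 97), 2 opposite and 36 at D2 only. With voom on estimated read pairs 67 of the 97 kept their call. A pseudocount of 0.1 gave 62 calls and 34 at D2 only. With single-transcript genes alone 4024 genes were tested, against 13077, so the counts are not on the same base. Among them 92 interactions and 396 genes at D2 were called, against 97 and 621. Median-ratio scaling moved the share of rises from 60.6 to 47.7% at D0 and from 59.6 to 39.8% at D2. The cause was not tested. With the replicate number as a block 42 interactions were called, 2 of them opposite, 14 at D0 only and 23 at D2 only. Deviations of same-numbered libraries correlated between -0.03 and 0.21 over 18 pairs, and the numbers were not taken to pair the libraries. Still, 9 of 12 libraries were closest to their own number. The share of TPM held by the top 20 genes was highest in library 1 and lowest in library 3 of every group. Whether the numbers mark a shared batch was not tested, so the main counts rest on libraries taken as unpaired. With 3 libraries a group and low levels at D0, small differences between days could not be detected.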

Other observations

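Some of the called genes not described above were called at D0 only and are not listed. Others moved at D2 only. The glycosyltransferase genes Mgat3 (interaction 0.60), Gxylt2 (0.82) and Gcnt1 (1.15) rose there, whereas Ext1, another glycosyltransferase gene, fell (-0.61). Mgat3 was measured at D2 at 49.3, 50.8 and 51.3 TPM in siControl and 88.2, 89.7 and 87.0 in siKctd10. At D0 it was measured at 71.4, 73.6 and 79.5 TPM in siControl and 83.1, 89.3 and 85.7 in siKctd10. Every siKctd10 library lay above the siControl libraries on both days, but the D0 difference (0.20) was smaller and not called. Plpp1, a lipid phosphatase, gave 119 ± 8 against 97.5 ± 9.85 TPM at D0 and 116 ± 7.69 against 157 ± 8.91 TPM at D2 (0.72), with an antisense neighbour at up to 38.8 TPM. Colec12, a scavenger receptor with a collagen-like domain, rose from 163 ± 10.4 to 272 ± 2.49 TPM at D2 (0.70). The organic anion carrier Slco3a1 (-1.03) and the creatine synthesis enzyme Gatm (-0.64) fell at D2 only. Slco2b1 (-1.01), another organic anion carrier, was called lower at D2, at 2.12 ± 0.431 against 0.476 ± 0.110 TPM. It was at no more than 0.069 TPM in any D0 library, where an effect was not detectable. The genes of this paragraph were grouped after their values were seen.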
